A study of Mus musculus with 4 samples.

Results

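The genes examined here were 9 that are used to describe inhibited or chronically stimulated T cells: Pdcd1, Lag3, Havcr2, Tigit, Ctla4, Tox, Entpd1, Cd27 and Cxcr6. They were taken by symbol from the 32285 genes of each count table, and all 9 were found. Spatial transcriptomes were measured by Visium, in which each barcoded spot on a slide captures the RNA of the tissue above it, and captured molecules are counted by a molecular identifier (UMI). There were 4 sections of MC38 tumors, a mouse colon carcinoma line, 2 from C57BL/6J x CC075/UncJ hosts (CC075F1, classed by the study as responding to anti-PD-1) and 2 from C57BL/6J x CC080/TauUncJ hosts (CC080F1, classed as not responding). All hosts were female F1 mice aged 8 to 12 weeks that carried 500000 MC38 cells under the skin. All received 200 µg of the isotype control antibody 2A3 when the tumor reached 75 to 110 mm3, and the tumors were taken 48 hours later. No tumor was treated with anti-PD-1, and each strain was represented by 2 tumors, so every strain value below has n = 2.

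These genes act at different points of T cell regulation. PD-1 (Pdcd1), LAG-3 (Lag3), TIM-3 (Havcr2), TIGIT (Tigit) and CTLA-4 (Ctla4) are inhibitory receptors at the T cell surface, and PD-1 and CTLA-4 are targets of cancer immunotherapy. TOX (Tox) is a nuclear factor needed for the program of exhausted CD8 T cells. CD39 (Entpd1) is a surface enzyme that degrades extracellular ATP, CD27 (Cd27) is a costimulatory receptor for CD70, and CXCR6 (Cxcr6) is the receptor for the chemokine CXCL16. TIM-3 and CD39 are also carried by myeloid cells, CD39 by endothelial cells as well, and CTLA-4 by regulatory T cells (Tregs) without prior activation.

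In GENCODE vM21 on GRCm38 the 9 genes are protein coding and lie apart from each other. Ctla4 (ENSMUSG00000026011) is at chr1:60887000-60915832 on the plus strand and Pdcd1 (ENSMUSG00000026285) at chr1:94038305-94052553 on the minus strand. Tox (ENSMUSG00000041272, chr4:6686353-6991557, minus), Lag3 (ENSMUSG00000030124, chr6:124904361-124911705, minus) and Cd27 (ENSMUSG00000030336, chr6:125232622-125237010, minus) follow. Cxcr6 (ENSMUSG00000048521) is at chr9:123806475-123811760 (plus), Havcr2 (ENSMUSG00000020399) at chr11:46454935-46481255 (plus), Tigit (ENSMUSG00000071552) at chr16:43648867-43664146 (minus) and Entpd1 (ENSMUSG00000048120) at chr19:40612366-40741602 (plus). Exons of Cd27 overlap those of Mir8113 on the same strand and exons of Tox those of Gm11802 on the opposite strand. Whether these overlaps affect the counts was not tested.

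The 250 bases upstream of the start site are shown for 3 genes that stand for the 2 patterns described below: Pdcd1 and Cxcr6, at higher levels in spots with T cell transcripts than in spots without them at the same macrophage level, and Havcr2, at nearly equal levels in that comparison. Sequences are from RefSeq (GRCm38.p6), which held an entry for 7 of the 9 genes (Lag3 and Tox had none), and run 5′ to 3′ on the strand of the gene. Capitals mark TGGAAA (the core read by NFAT factors), TGTGGT (Runx factors) or GAGGAA (ETS factors), on either strand.
Pdcd1, chr1:94052554-94052803, minus: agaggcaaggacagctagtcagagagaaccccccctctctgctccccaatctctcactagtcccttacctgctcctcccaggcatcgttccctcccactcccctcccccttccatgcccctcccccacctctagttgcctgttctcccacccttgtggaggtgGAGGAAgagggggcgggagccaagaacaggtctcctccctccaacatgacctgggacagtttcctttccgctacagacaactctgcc
Cxcr6, chr9:123806227-123806476, plus: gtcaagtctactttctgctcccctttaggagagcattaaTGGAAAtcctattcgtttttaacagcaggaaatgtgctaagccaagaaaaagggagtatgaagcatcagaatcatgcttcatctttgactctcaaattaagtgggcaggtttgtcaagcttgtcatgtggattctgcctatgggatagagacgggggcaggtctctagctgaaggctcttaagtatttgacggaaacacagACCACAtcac
Havcr2, chr11:46454681-46454930, plus: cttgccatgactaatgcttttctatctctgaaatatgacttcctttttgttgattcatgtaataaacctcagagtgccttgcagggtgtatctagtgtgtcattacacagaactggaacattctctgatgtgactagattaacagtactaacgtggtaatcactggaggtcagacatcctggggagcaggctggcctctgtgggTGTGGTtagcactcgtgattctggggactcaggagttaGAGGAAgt
The Pdcd1 window held 1 GAGGAA. The Cxcr6 window held 1 TGGAAA and, as ACCACA on the other strand, 1 TGTGGT, and the Havcr2 window 1 TGTGGT and 1 GAGGAA. Such matches were common: of all 32851 windows, 18.6% held TGGAAA, 14.0% TGTGGT and 23.3% GAGGAA. No marked stretch overlapped another.

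The sections held 2710 to 3276 spots under tissue and 82594649 to 146460975 UMIs, with medians of 31139 to 41740 UMIs per spot. Between any pair of sections 2016 to 2793 spot barcodes were shared, since Visium barcodes mark slide positions. T cells were present by their markers: Cd3 transcripts (Cd3d, Cd3e and Cd3g summed) were at 26.3 and 24.1 CPM (UMIs scaled by the section total) in CC075F1 replicates 1 and 2 against 8.24 and 7.31 CPM in CC080F1. Cd8a was at 12.7 and 6.59 CPM against 2.46 and 1.13, and Cd4 only at 0.235 to 0.751 CPM in the 4 sections. The 8 macrophage markers summed to 2527 and 2528 CPM in CC075F1 against 1654 and 1898 in CC080F1. CC075F1 replicate 2 also held skeletal muscle, skin or fat: 14.8% of its spots passed a limit on their markers, against 0.221% to 4.63% elsewhere, a rule set after seeing that Krt10 was found throughout every section.

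Each gene was first described as CPM of the whole section, which in bulk cannot tell fewer T cells from less RNA per cell. Pdcd1 was at 6.49 and 2.84 CPM in CC075F1 replicates 1 and 2 against 1.62 and 1.53 CPM in CC080F1, from 152 to 536 UMIs per section. The strains did not overlap, although the CC075F1 sections differed from each other by more than the CC080F1 pair did. Cxcr6, the CXCL16 receptor, had the same order of strains, at 5.88 and 3.03 CPM in CC075F1 against 1.61 and 0.550 CPM in CC080F1. Tox was at 2.51 and 0.792 CPM against 0.566 and 0.382 CPM, with CC075F1 replicate 1 well above the other 3 sections.

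Lag3, which binds MHC class II, was at 2.22 and 0.963 CPM in CC075F1 against 0.631 and 0.941 CPM in CC080F1. Its second replicates differed by less than their counting error, and the strains were separated only just. Cd27 was at 1.46 and 1.25 CPM against 0.545 and 1.02 CPM. Entpd1, with 1090 to 2807 UMIs per section the most counted of the 9, was at 22.6 and 19.2 CPM against 11.6 and 18.1 CPM. In this gene as in Cd27 the second CC080F1 section was close to CC075F1 replicate 2.

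The other 3 genes did not separate the strains. Havcr2 was at 13.4 and 8.79 CPM in CC075F1 against 10.8 and 12.5 CPM in CC080F1, with the CC080F1 values between the CC075F1 ones. Ctla4 was at 1.31 and 0.819 CPM against 0.887 and 2.22 CPM, its highest value being that of CC080F1 replicate 2. Tigit had 2, 2, 0 and 2 UMIs in the 4 sections (0 allows up to 3 UMIs, 0.0321 CPM in CC080F1 replicate 1), too few for any comparison. In all, 6 genes (Pdcd1, Lag3, Tox, Entpd1, Cd27 and Cxcr6) had both CC075F1 sections above both CC080F1 sections, an order seen in 6.63% of the 15572 genes tested.

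**Figure D1:**
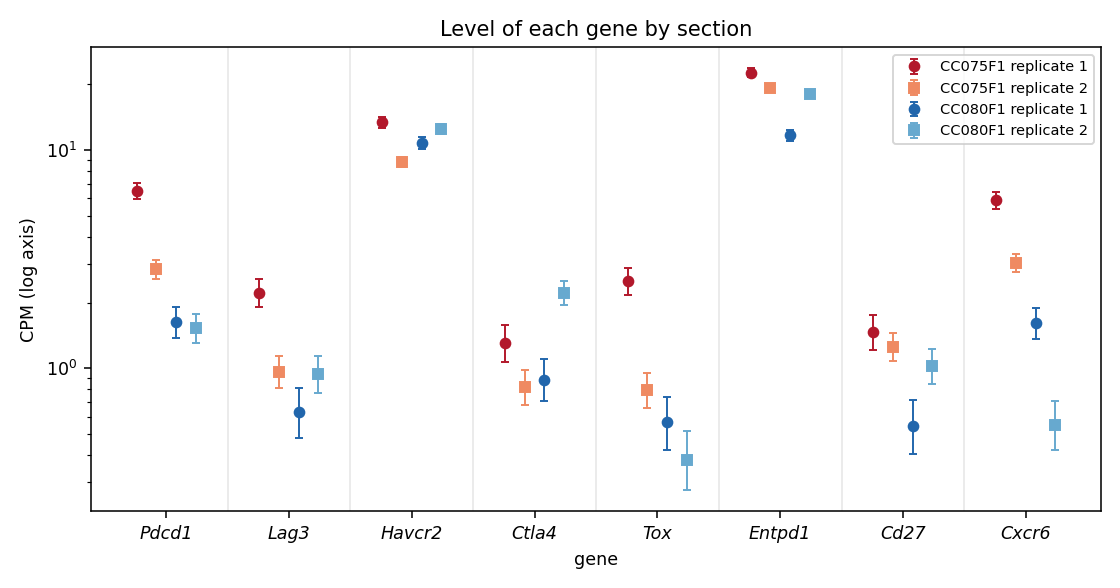
CPM (log axis) of 8 genes in the 4 sections, red for CC075F1 and blue for CC080F1; bars are 95% Poisson intervals, which cover counting error alone. For Pdcd1 and Cxcr6 both red points lie above both blue ones, and for Havcr2 and Ctla4 red and blue overlap.

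Over sections as replicates, none of the 8 genes tested passed an adjusted p of 0.05 in edgeR's quasi-likelihood test, in which 0.0899% of all genes passed (14 of 15572). The estimate was a log2 fold change (CC075F1 over CC080F1) of 1.80 ± 0.34 (SE) for Pdcd1, with an edgeR p of 0.00117 and an adjusted p of 0.239. Cxcr6 stood at 2.32 ± 0.50 (adjusted p = 0.340 in edgeR) and Tox at 2.00 ± 0.51 (edgeR adjusted p = 0.443), which was 1.33 without CC075F1 replicate 1. Lag3, Cd27 and Entpd1 had log2 fold changes of 1.23, 1.09 and 0.79 with edgeR adjusted p of 0.780 to 0.830. Those of Havcr2 and Ctla4 were 0.21 and -0.30, and that of Ctla4 turned to 0.61 without CC080F1 replicate 2 and that of Havcr2 to -0.071 with library size alone as the scaling. At an unadjusted p under 0.05, 5 of the 8 (Pdcd1, Lag3, Tox, Entpd1 and Cxcr6) were higher in CC075F1, as were 3.19% of all genes. The calls depended on the method: DESeq2 called Pdcd1, Tox and Cxcr6 (adjusted p = 1.03e-04, 0.0251 and 3.09e-04), where it called 1.25% of all genes. With no filter on low counts edgeR called these 3 and Entpd1 (adjusted p = 0.0432), among 2.13% of 22507 genes. Without CC080F1 replicate 1 edgeR called Cxcr6 (log2 fold change 3.20, adjusted p = 3.26e-04), where it called 0.848% of genes.

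The share of spots with a UMI of each gene was compared after thinning every spot to 10000 UMIs. Pdcd1 was then found in 5.45% and 3.40% of spots in CC075F1 against 1.79% and 1.68% in CC080F1 (17.2%, 11.4%, 5.20% and 4.85% before thinning). Cxcr6 was found in 5.81% and 2.84% against 1.35% and 0.640%. For Tox the thinned shares were 2.43% and 0.851% against 0.512% and 0.303%, and for Entpd1 20.6% and 18.4% against 9.84% and 15.7%. The log2 strain ratio of the Tox shares was 1.87 at 10000 UMIs but 0.92 when spots were thinned to 5000. The same 6 genes as by CPM had shares that did not overlap between strains, with CC075F1 above (background 7.33%), while Havcr2 (13.0% and 8.85% against 9.91% and 11.6%) and Ctla4 overlapped. With 2 sections a strain the exact permutation test cannot give a p below 0.33, which is what these 6 genes gave.

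Since T cell transcript itself differed between the strains, levels were next expressed per 100 UMIs of Cd3. Pdcd1 was then at 24.7 and 11.8 in CC075F1 against 19.7 and 20.9 in CC080F1. The strains overlapped, and so did Lag3 (8.43 and 3.998 against 7.65 and 12.9), Tox (9.53 and 3.29 against 6.87 and 5.22) and Cxcr6 (22.4 and 12.6 against 19.6 and 7.52). The strain ratio of the means was 0.899 for Pdcd1, where it had been 2.96 by CPM, and 1.06 for Tox, where it had been 3.48. All 4 of these genes gave two-sided exact permutation p-values of 0.667 or 1.

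The other 4 genes were higher per Cd3 UMI in both CC080F1 sections. Ctla4 was at 4.97 and 3.40 per 100 Cd3 UMIs in CC075F1 against 10.8 and 30.3 in CC080F1, and Cd27 at 5.57 and 5.19 against 6.61 and 14.0. Havcr2 was at 50.9 and 36.5 against 131 and 171, and Entpd1 at 85.9 and 79.6 against 141 and 248. Cd3 was low in CC080F1, and 96.6% of all genes had both CC080F1 sections above on this scale, so this order was the usual one. Foxp3, the Treg factor, was at 3.36 and 1.33 per 100 Cd3 UMIs against 4.80 and 11.7, and the NK cell gene Ncr1 at 1.70 and 3.18 against 4.28 and 35.7. Both were highest in CC080F1 replicate 2 on this scale, as Ctla4 was. By CPM Ncr1 was also highest there (2.61), but Foxp3 was highest in CC075F1 replicate 1 (0.884, against 0.852 in CC080F1 replicate 2). The part of Foxp3 and Ncr1 in the Ctla4 values was not tested.

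**Figure D2:**
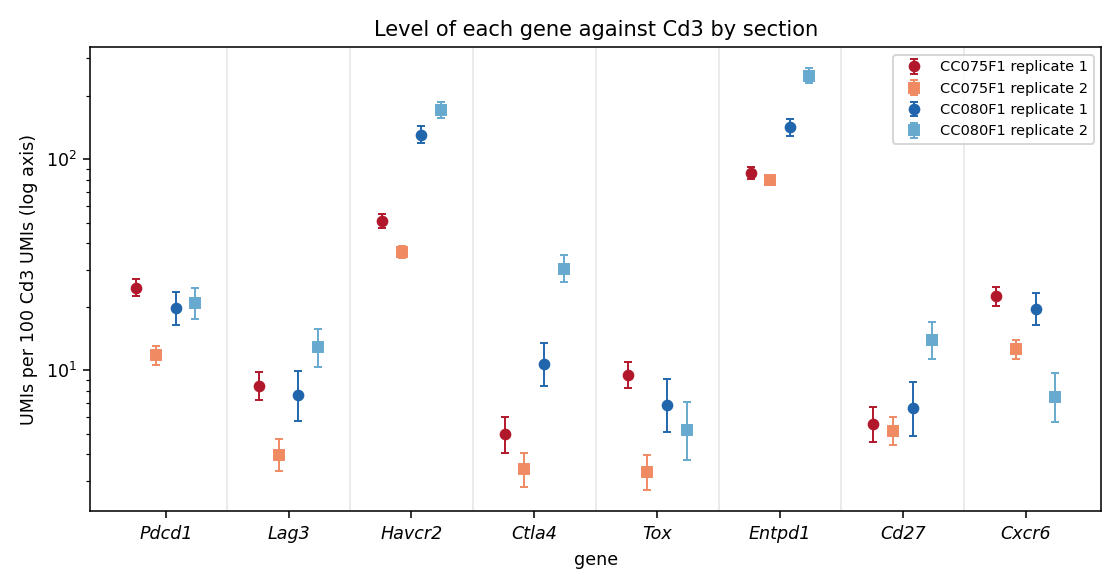
UMIs of each gene per 100 Cd3 UMIs (log axis) in the 4 sections, red for CC075F1 and blue for CC080F1, with 95% counting intervals that cover counting error alone. Pdcd1, Lag3, Tox and Cxcr6 overlap between strains, while Havcr2, Ctla4, Entpd1 and Cd27 have both blue points above both red ones.

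Per 100 Cd8a UMIs the CC080F1 sections were above for all 8 genes, as they were for 97.3% of all genes. Pdcd1 was at 51.0 and 43.1 in CC075F1 against 66.1 and 135 in CC080F1. The second CC080F1 section rests on only 127 Cd8a UMIs. Cxcr6 was the closest, at 46.3 and 46.0 against 65.7 and 48.8. The ratios depended on which spots were counted: with only spots that held a Cd3 UMI the median log2 strain ratio of the 8 genes went from -0.81 to 0.12, and with only spots that held a Cd8a UMI from -1.57 to 0.58. That restriction drops the UMIs of these genes that were captured in spots without the marker. Spots with a Cd3 UMI were 49.9% and 56.9% in CC075F1 against 21.9% and 20.3% in CC080F1, so more was dropped in CC080F1. In Cd3 spots the log2 strain ratio of Pdcd1 went from -0.25 to 0.68 and that of Tox from -0.10 to 0.86. Havcr2 (-0.49) and Ctla4 (-1.33) stayed below 0 there. The shift over all genes is not given.

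Which spots held each gene was measured by an odds ratio between finding the gene and finding Cd3 in the same spot, stratified over 10 levels of spot depth. The ratio with Cd3 was above 1 in every section for all 8 genes, as it was for 22.8% of all genes, whose median was 1.07. It was highest for Ctla4 (mean 2.01 ± 0.47, SD over 4 sections) and Cxcr6 (1.97 ± 0.51), then Pdcd1 (1.66 ± 0.30), Tox (1.62 ± 0.69), Lag3 (1.55 ± 0.30) and Cd27 (1.49 ± 0.33). Their ranges over sections overlapped. It was lowest for Entpd1 (1.23 ± 0.13) and Havcr2 (1.14 ± 0.15), and the latter was 1.01 and 1.03 in CC080F1. With Trac, Trbc1 or Trbc2 in place of Cd3, Havcr2 was at 0.979 in CC075F1 replicate 1 and Entpd1 at 0.996 in CC080F1 replicate 1, and the other 6 genes were above 1 throughout. With Cd8a, 7 of the 8 were above 1 in every section against 17.2% of all genes, and Cd27 was at 0.758 in CC080F1 replicate 2.

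Ctla4 had its highest mean odds ratio with Treg transcripts (Foxp3, Il2ra or Ikzf4), which were found in 4.49% to 9.14% of spots. Il2ra was the most counted of them (0.751 to 2.13 CPM, against 0.321 to 0.884 for Foxp3). No ratio with Foxp3 alone is given. The odds ratio of Ctla4 with this list was 2.15 and 3.27 in CC075F1 against 4.45 and 3.50 in CC080F1, a mean of 3.34 ± 0.95. In CC075F1 replicate 1 its ratio with Cd3 was nearly the same (2.12). No other gene of the 8 had a mean above 1.74 (Cd27) with the Treg list. Pdcd1 (1.47 ± 0.39), Tox, Entpd1, Cd27 and Cxcr6 were also above 1 with Treg transcripts in all 4 sections, as were 15.2% of all genes, while Lag3 and Havcr2 were so in 2. With Ccr7, Ccl22 or Il4i1, markers of mature dendritic cells (Fscn1 left out after it was seen in nearly all spots), 6 of the 8 genes were above 1 in every section against 17.8% of all genes, with means of 2.05 for Ctla4, 1.93 for Cd27 and 1.73 for Pdcd1. With endothelial markers, 5 of the 8 were above 1 in every section against 38.9% of all genes. Entpd1 had a ratio of 1.51 ± 0.28 there (1.31 to 1.92), larger in every section than its ratio with Cd3.

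Other lymphoid and dendritic lists gave fewer such genes. With NK cell markers it was 1 of the 8 (Pdcd1) against 25.5% of all genes, and 4 (Pdcd1, Ctla4, Entpd1 and Cd27) against 17% once Klra4, found in most spots, was left out. With markers of type 1 conventional dendritic cells it was 1 (Cxcr6) against 20.7%, and 2 (Pdcd1 and Cxcr6) against 10.4% without Wdfy4. With B cell markers it was 1 (Cxcr6, mean 1.22) against 12.2%.

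**Figure D3:**
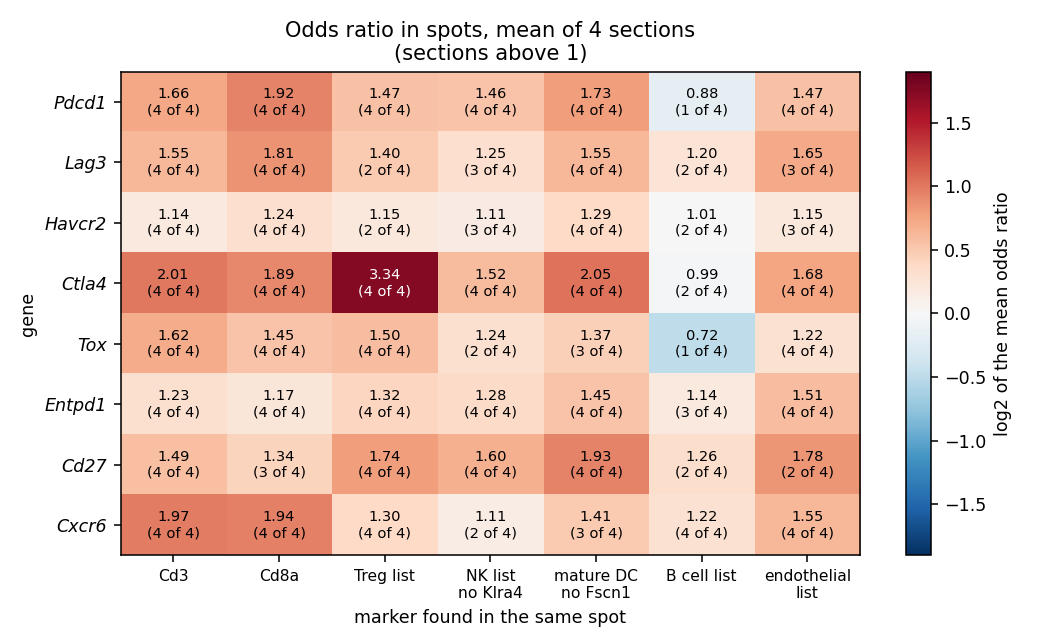
Odds ratio, stratified by spot depth, between each of 8 genes (rows) and markers found in the same spot (columns), as the mean of 4 sections with the number of sections above 1 in parentheses; red is above 1. The highest value is that of Ctla4 with the Treg list, 3.34, and Havcr2 has values near 1 in most columns.

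Macrophages were addressed in spots without a UMI of Cd3d, Cd3e, Cd3g, Cd8a, Trac, Trbc1 or Trbc2. There were 536 and 587 such spots in CC075F1 against 1552 and 1618 in CC080F1, and since capture is incomplete they may hold T cells. Havcr2 was found in 25.2% and 24.5% of them in CC075F1 against 26.9% and 31.4% in CC080F1. In the spots with T cell UMIs it was found in 33.3%, 32.5%, 32.6% and 37.1%. By level Havcr2 was at 13.4 and 6.65 CPM without and 13.4 and 9.26 CPM with T cell UMIs in CC075F1, and 10.3 and 12.2 against 11.3 and 12.8 CPM in CC080F1. Pdcd1 was at 4.59 and 1.41 CPM without and 6.84 and 3.15 CPM with T cell UMIs in CC075F1, and at 1.28 and 0.925 against 2.00 and 2.06 CPM in CC080F1. Median depths in CC075F1 were 25032 and 42423 UMIs in spots without and 32218 and 41663 in spots with T cell UMIs. In CC080F1 they were 31928 and 31811 without and 36009 and 37398 with T cell UMIs. Spots with T cell UMIs were thus deeper except in CC075F1 replicate 2, and the shares above were not thinned.

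Spots with and without T cell UMIs were then compared at the same macrophage level, in tertiles of spots by the summed CPM of the 8 macrophage markers, among them Adgre1, Csf1r, C1qa, C1qb, C1qc, Fcgr1 and Cd68. The ratio of levels was 1.03 ± 0.07 (SD over 4 sections) for Havcr2 and 1.05 ± 0.06 for Entpd1. Tyrobp, a myeloid gene outside the 8 markers, had 1.06 ± 0.05. The ratios of Cxcr6 (2.30 ± 0.55), Tox (2.15 ± 1.35), Cd27 (1.82 ± 0.57), Ctla4 (1.79 ± 0.41), Pdcd1 (1.66 ± 0.23) and Lag3 (1.58 ± 0.18) were higher. From the T cell list Cd8b1, Cd2, Lck and Thy1 had 1.73 ± 0.44, 1.63 ± 0.43, 1.57 ± 0.31 and 1.36 ± 0.09. Thy1, unlike Cd8b1, Cd2 and Lck, was higher in both CC080F1 sections by CPM. Cxcr6 and Tox had means above all 4, but not in every section. In CC075F1 replicate 1 Tox was below all 4, and Cxcr6 (1.54) was below Cd2 (1.74). In CC080F1 replicate 1 Tox (1.56) was below Cd8b1 (1.93). The 4.11 of Tox in CC075F1 replicate 2 rests on 4 UMIs in spots without T cell UMIs. Foxp3 had 2.85 ± 2.19, Ncr1 1.69 ± 0.56 and the endothelial gene Pecam1 1.26 ± 0.19. These reference genes were chosen after the data were seen. The ratio was above 1 in every section for 5 of the 8 genes, against 19.1% of all genes, and Pdcd1, Lag3, Ctla4 and Cxcr6 were at 1.2 or more in every section, as were 0.835%. Tox was at 1.05 in CC075F1 replicate 1, and Cd27 at 0.998 in CC080F1 replicate 2, so that neither stood above 1.2 throughout.

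Within the spots without T cell UMIs, Havcr2 was higher where macrophage transcript was higher. From the lowest to the highest macrophage tertile it went from 11.2 to 18.3 and from 4.87 to 14.8 CPM in CC075F1 replicates 1 and 2, and from 8.94 to 11.8 and from 8.66 to 15.2 CPM in CC080F1. These are ratios of 1.63, 3.03, 1.31 and 1.75. Entpd1 had ratios of 1.201 and 2.81 in CC075F1 against 1.43 and 1.97 in CC080F1. In all, 6 of the 8 genes had ratios above 1 in every section, against 23.4% of all genes, the exceptions being Tox and Cxcr6. Outside Havcr2 and Entpd1 the ratios rest on few UMIs: the 14.7 of Lag3 in CC075F1 replicate 2 compares 7 UMIs with 3, and that of Pdcd1 in CC080F1 replicate 1 was 1.00. With 2 groups of spots by macrophage level in place of 3, or with Adgre1 and Csf1r alone as markers, 3 genes were above 1 in every section.

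**Figure D4:**
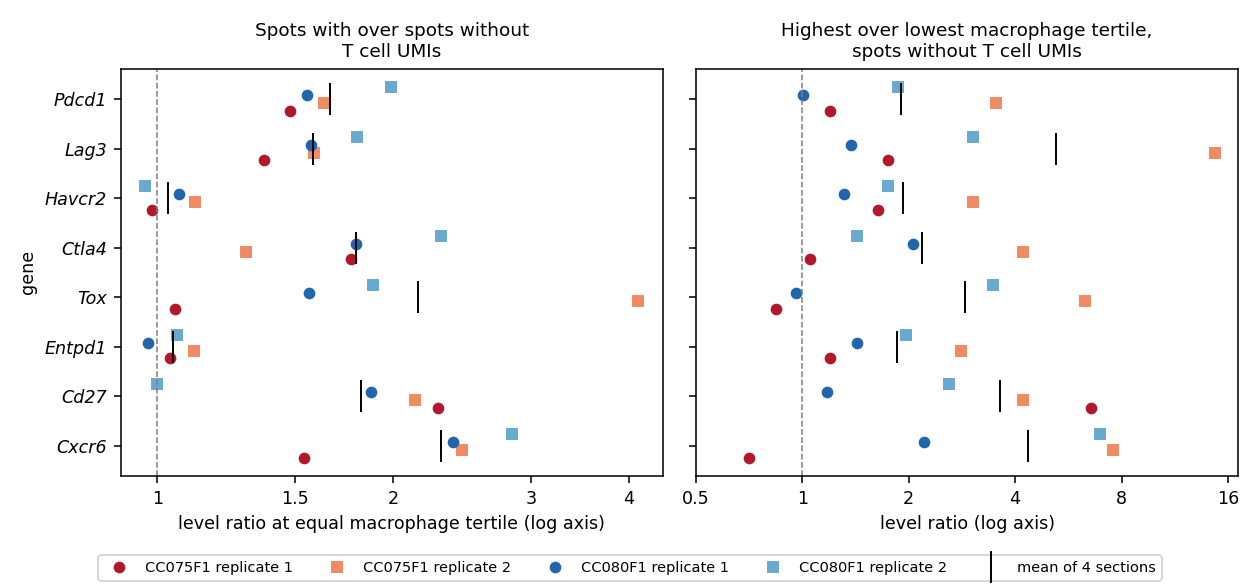
Level ratios on log axes for 8 genes in the 4 sections, red for CC075F1 and blue for CC080F1, with a tick at the mean: left, spots with over spots without T cell UMIs at equal macrophage tertile; right, highest over lowest macrophage tertile in spots without T cell UMIs. On the left Havcr2 and Entpd1 lie between 0.965 and 1.12, while Pdcd1, Lag3, Ctla4 and Cxcr6 lie above 1.2 in every section.

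Per 100 UMIs of the 8 macrophage markers, a scale added after the data were seen, Havcr2 was at 0.529 and 0.348 in CC075F1 against 0.651 and 0.659 in CC080F1. The strains did not overlap on this scale, with an exact permutation p of 0.33, and 83% of all genes likewise had both CC080F1 sections above. Most of the marker sum was C1qa, C1qb and C1qc (681, 818 and 576 CPM in CC075F1 replicate 1). Their log2 fold changes were 0.82, 1.01 and 0.91, against 0.22 for Adgre1 and 0.12 for Csf1r. Havcr2 was not compared per UMI of single markers, so the separation holds for the summed markers only. Entpd1 was at 0.893 and 0.758 against 0.704 and 0.954, and overlapped. Over neighborhoods of a spot and its 6 neighbors, the genes whose CPM followed Entpd1 most closely included Cxcl9 (median Spearman rho over 4 sections 0.36, range 0.14 to 0.56), AW112010 (0.36), Psap (0.34) and Gbp4 (0.33). For Havcr2 they were the macrophage genes Lgmn (0.21), C1qb (0.21), Tgfbi (0.20), Tyrobp (0.20) and Ctsc (0.19). These are descriptions over neighborhoods that overlap and share a library and its depth. For the other 6 genes the highest median was 0.23 (Pdcd1 with Igfbp7) and counts were sparse. Tgfbi was also among the nearest genes of Pdcd1 (0.21), and C1qb among those of Cxcr6 (0.18). Such neighbors were thus not particular to Havcr2.

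Pairs of the genes were compared in the same way, and 15 of 28 had an odds ratio above 1 in every section, against 14.2% for these genes paired with all genes. Pdcd1 was found with Ctla4 (mean 2.03, range 1.11 to 2.96), with Cxcr6 (1.84, 1.07 to 2.44) and with Tox (1.79, 1.18 to 2.52). In CC080F1 replicates 1 and 2 these rest on few spots with both genes: 8 and 26, 15 and 6, and 4 and 5. In CC075F1 replicates 1 and 2 there were 20 and 22, 78 and 64, and 56 and 15. Lag3 and Ctla4 had a mean of 1.85 (1.25 to 3.13), from 10, 7, 2 and 18 spots with both. Pdcd1 and Lag3 ranged from 1.00 to 2.18, from 33, 22, 4 and 10 spots with both. Lag3 and Tox were the only pair below 1 in all 4 sections (0.664 to 0.981), but shared only 14, 3, 1 and 1 spots.

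Spots that held at least 2 of Pdcd1, Lag3, Ctla4, Tox, Cd27 and Cxcr6 made up 11.0% and 6.47% of spots in CC075F1 against 1.97% and 2.71% in CC080F1, without thinning. Of these spots 93.0% and 94.3% in CC075F1 against 74.5% and 77.9% in CC080F1 held a T cell UMI, against 80.2%, 82.1%, 44.3% and 49.0% of all spots. At least 3 of the 6 were found in 47, 31, 2 and 13 spots.

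The genes around these receptors were counted from fixed lists, with no member called except where given. Of 15 T cell genes 1 passed edgeR's test, Cd3g (log2 fold change 2.42, adjusted p = 0.0491 in edgeR), higher in CC075F1 as were 0.0578% of all genes. That call was lost, with adjusted p-values of 0.0513 to 0.0868, with DESeq2 size factors, library size alone, limma-voom, the fixed rule against skin, muscle or fat spots, or without either CC075F1 replicate. Of the 15 T cell genes 14 had estimates above 0, with a median of 1.56 against -0.02 for all genes, and Cd8a (2.70) and Cd8b1 (2.60) had the largest. Thy1 (-0.22) was the only estimate below 0, at 19.0 and 14.4 CPM in CC075F1 against 22.0 and 25.6 CPM in CC080F1. In CC080F1 that was above the summed Cd3 (8.24 and 7.31 CPM), and its cell source was not tested. Among 15 ligands and partners of the receptors none passed and the median was 0.43. Pdcd1lg2, which encodes PD-L2, had 1.31 and Lgals3, a ligand of LAG-3, had 1.13, while Ceacam1, a partner of TIM-3, had -0.65 and Nt5e, the enzyme that acts after CD39, had -0.31. Cd274, which encodes PD-L1, was at 8.16 and 6.92 CPM in CC075F1 against 7.34 and 6.66 CPM in CC080F1.

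Of 22 tested genes of the exhaustion program none passed, with a median of 0.04. Some were counted above the summed Cd3 (7.31 to 26.3 CPM) in every section, such as Id3 (32.3 to 44.5 CPM) and Vsir (32.0 to 46.7 CPM). Which cells carried these genes was not tested, so the median need not describe T cells. Cd160 (1.45) and Tbx21 (1.18) were at one end, and Btla (-0.83) and Nr4a2 (-0.47) at the other. Of 9 tested costimulatory receptors none passed, with a median of 0.66. Cd226, which shares its ligand with TIGIT, had 1.94 and Cd96 had 0.85, while Il2ra (-0.37) and Tnfrsf9 (-0.06) were lowest. The 8 macrophage markers had a median of 0.64 and none passed. At an unadjusted p under 0.05 the counts were 11 T cell genes, 3 ligands, 3 exhaustion genes, 1 costimulatory receptor and 4 macrophage genes, all with higher values in CC075F1, as were 3.19% of all genes. Of the other marker lists, NK cell and type 1 dendritic cell markers had 2 such genes each and B cell markers 1. Estimates were above 0 for 3 of the 5 NK cell genes, with Ncr1 (-0.93) and Klrb1c (-0.16) below. They were above 0 for 3 of the 4 type 1 dendritic cell genes, with Snx22 (-0.53) below. Endothelial markers went the other way, with all 4 estimates below 0 (median -0.54), 2 of them at an unadjusted p under 0.05 (Kdr, -0.80, and Cdh5, -0.77), and none passed (lowest adjusted p = 0.604 in edgeR).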

How the data were processed

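The 4 tissue sections, 1 library each, were used; each came from its own tumor, and the labels give no batch. The authors aligned reads to GRCm38 with GENCODE vM23 annotations by Space Ranger 1.3.1, and deposited UMI counts for each gene in each spot under tissue, which they had not normalized. For tests, counts were summed per section. The 15572 genes passing filterByExpr were fitted by edgeR 4.0.16 in R 4.3.3 (quasi-likelihood, TMM, strain as the only term), with Benjamini-Hochberg adjustment over all genes and a threshold of 0.05. DESeq2 1.42.0 and limma-voom 3.58.1 were alternatives. The fit was tested on simulated data. Spots are not replicates, so odds ratios (Mantel-Haenszel, 10 depth strata) and level ratios over spots have no p. Other section values were compared by two-sided exact permutation tests, whose smallest p is 0.33. Shares carry exact binomial and levels Poisson intervals at 95%, for counting error only, with 3 UMIs as the limit for a count of 0. Thinning to 10000 UMIs left out 53 to 205 spots per section. A spot can hold several cells, and 1 spot had no UMI. Positions came from GENCODE vM21 and upstream sequences from RefSeq.

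The members and lists were chosen with earlier results of these data known. Named genes are the 9, Cd3 and Cd8a genes, list genes that passed or had the 2 largest or 2 smallest log2 fold changes, and for each member the 5 genes of most similar neighborhood profile among 9400 with at least 500 UMIs in every section (or members with 200). Genes named beyond these (Foxp3, Ncr1, Cd274, Cd4, Tyrobp, Pecam1, Kdr, Cdh5, Cd2, Lck, C1qa, C1qc, Id3 and Vsir) were added after their values were seen. Some genes that these rules name are not reported here.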

Additional observations from a re-analysis of the deposited data

Results flagged for a closer look

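Odds ratios in spots were looked at for opposite directions in the strains, that is above 1 in both sections of a strain and below 1 in both of the other. Of 86 values looked at (odds ratios with marker lists, odds ratios of pairs and macrophage ratios), 5 had this pattern. The share of all genes with this pattern was not computed, so the 5 cannot be read as an excess. Several of their ratios lay close to 1. None of these differences was tested, and with 2 sections a strain an exact permutation test could not pass 0.05. Havcr2 with Ctla4 had 0.994 and 0.969 in CC075F1 against 1.26 and 1.15 in CC080F1, a ratio of strain means of 0.814. Lag3 with B cell markers had 0.950 and 0.768 against 1.46 and 1.60 (ratio 0.561). Ctla4 with B cell markers had 1.16 and 1.01 against 0.866 and 0.915 (ratio 1.22). Cd27 with NK cell markers had 0.912 and 0.838 against 1.03 and 1.17 (ratio 0.798), and Tox with NK cell markers had 1.01 and 2.55 against 0.834 and 0.436 (ratio 2.80). The NK list here included Klra4, and without it neither gene had opposite directions. Counts were sparse: in CC080F1 Lag3 was found in 59 and 101 spots and Tox in 49 and 42, without thinning.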

How the results depend on the processing

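The genes called by edgeR numbered 14. They were 40 with library size alone, 194 with DESeq2, 480 with no filter on low counts and 32 without skin, muscle or fat spots when Krt10 was not used, an alternative chosen after seeing the data. Leaving out a section gave 11 to 207. Of the 9 genes studied, 0 were called; DESeq2 called 3 and edgeR with no filter 4, and leaving out a section gave 0 to 1. Of the list genes 1 was called (Cd3g). It became 0 with DESeq2 size factors, library size alone, limma-voom or the fixed skin, muscle or fat rule, 9 with DESeq2, 12 with no filter, 4 without Krt10 in that rule and 0 to 7 when a section was left out. These list alternatives were also chosen after seeing the data. The causes were not tested. The fixed rule left out 23.6% to 50.7% of spots because Krt10 was found throughout. Library size alone shifted the log2 fold changes, with the median over genes going from -0.02 to -0.31 and Havcr2 from 0.21 to -0.071. Leaving out a section took Ctla4 from -0.30 to between -0.85 (without CC080F1 replicate 1) and 0.61 (without CC080F1 replicate 2).

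With the replicate number as a block, edgeR called 287 genes (1.84%), 4 of the 9 (Pdcd1, Tox, Entpd1 and Cxcr6) and 11 list genes. The number pairs no animals in the labels, and the deviations of the replicates 1 from their strain means correlated at 0.17 over genes, with only 2 pairs.

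The median log2 strain ratio per Cd3 UMI was 0.12 when only spots with a Cd3 UMI were counted, and that per Cd8a UMI 0.58 with only Cd8a spots. Leaving out a section gave -1.26 to -0.35 per Cd3 UMI, -2.50 to -0.63 per Cd8a UMI and 0.39 to 1.38 for the share of spots, the extremes being without CC080F1 replicate 1 or 2. Genes with macrophage ratios above 1 in every section numbered 3 with 2 groups of spots in place of 3, and 3 with Adgre1 and Csf1r alone. Depth limits Tigit, with at most 2 UMIs a section, and ratios that rest on Tox, Lag3 or Cd27 in single sections.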
